A study of Mus musculus with 6 samples.

Results

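The effect of PAMAM dendrimers that is shared by olfactory bulb, hippocampus and cortex was measured over all 6 arrays of the series: 3 PAMAM arrays, each set against the saline array of its own region. PAMAM dendrimers are branched polyamidoamine polymers that are used as carriers of drugs and nucleic acids. Male mice of the inbred strain BALB/c, aged 8 weeks, received 1 dose into the nose, either saline or PAMAM at 0.15 mg/kg, and the tissues were taken 24 h later. Each array was hybridised with RNA pooled from 6 independent experiments, so a group of region and treatment is 1 array. Neither the hour of the day of the dissections, nor whether 1 mouse gave all 3 regions, is stated in the labels.

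Differences are PAMAM minus saline on the log2 scale, given first for the olfactory bulb, then for the hippocampus and last for the cortex, after each array's 75th percentile was subtracted, and a level is the log2 signal relative to that percentile. A probe entered when it was well above background on all 6 arrays, which held for 29553 of 55681 probes, and a gene stands for its brightest such probe, which gave 21110 genes. Mean differences are over the 3 regions and are given with the standard error of the paired fit, which reads the regions as replicates. The resulting p-values thus measure only the spread over these 3 regions, which may be technical. An exact sign-flip test over 3 pairs cannot go below a two-sided p of 0.25.

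Cells answer a load of misfolded protein in the endoplasmic reticulum with the unfolded protein response, which raises ER chaperones, disulphide isomerases and the machinery that sends proteins out for degradation. In the cytosol the corresponding programme is the heat shock response, run by Hsf1. The circadian clock is a loop in which Clock and Arntl act on E-boxes of their own repressors, the Period, Cryptochrome and Rev-erb genes, and of output genes such as Dbp. Immediate-early genes such as Fos and Npas4 are transcribed within minutes of neuronal activity, and late genes such as Bdnf follow them.

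No gene passed the test. The paired limma fit called 0 of 29553 probes, 0%, at an adjusted p under 0.05, with a lowest adjusted p of 0.622, while 2023 probes (6.85%) had an unadjusted p under 0.05. All named differences below are therefore descriptions of 6 arrays. By direction alone, 3230 genes (15.3%) were higher with PAMAM in all 3 regions and 3002 (14.2%) were lower in all 3. By a size rule of at least 0.3 in each region, a ratio of 1.23, 70 genes (0.332%) were higher and 65 (0.308%) lower, or 31 and 19 with normexp background correction. Among the 12041 brighter genes, those with a mean level above -0.38, 2171 (18.0%) were higher and 1465 (12.2%) lower in all 3 regions at any size. By the size rule, 17 brighter genes (0.141%) were higher and 11 (0.0914%) lower. Just inside the rule were Srarp at 0.3016 and an interval transcript on chromosome 14 at -0.3006 in the region where each differed least. Just outside were LOC100046302 at 0.2995 and an interval transcript on chromosome 10 at -0.2974.

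Gene lists, here and below, were chosen with earlier results of these data known, so counts of their members are descriptions. Of the 17 brighter genes that met the size rule as higher, 7 belong to the list of unfolded protein response and ER folding genes and 2 to the list of heat shock genes and cytosolic chaperones. These lists hold 29 and 25 of all 12041 brighter genes. Of the 11 brighter genes that were lower, 3 are immediate-early genes, 1 is a clock gene and 1 a cold-inducible RNA-binding protein gene. Their lists hold 21, 12 and 2 of all brighter genes. Most of the higher ones differed most in the cortex (12 of 17), and most of the lower ones in the olfactory bulb (8 of 11). Without the limit on brightness, 41 of the 70 higher genes differed most in the cortex. Of the 65 lower genes, 27 differed most in the olfactory bulb and 25 in the cortex. Differences over all probes were also most scattered in the cortex, with a robust SD of 0.22, against 0.14 (olfactory bulb) and 0.15 (hippocampus).

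**Figure D1:**
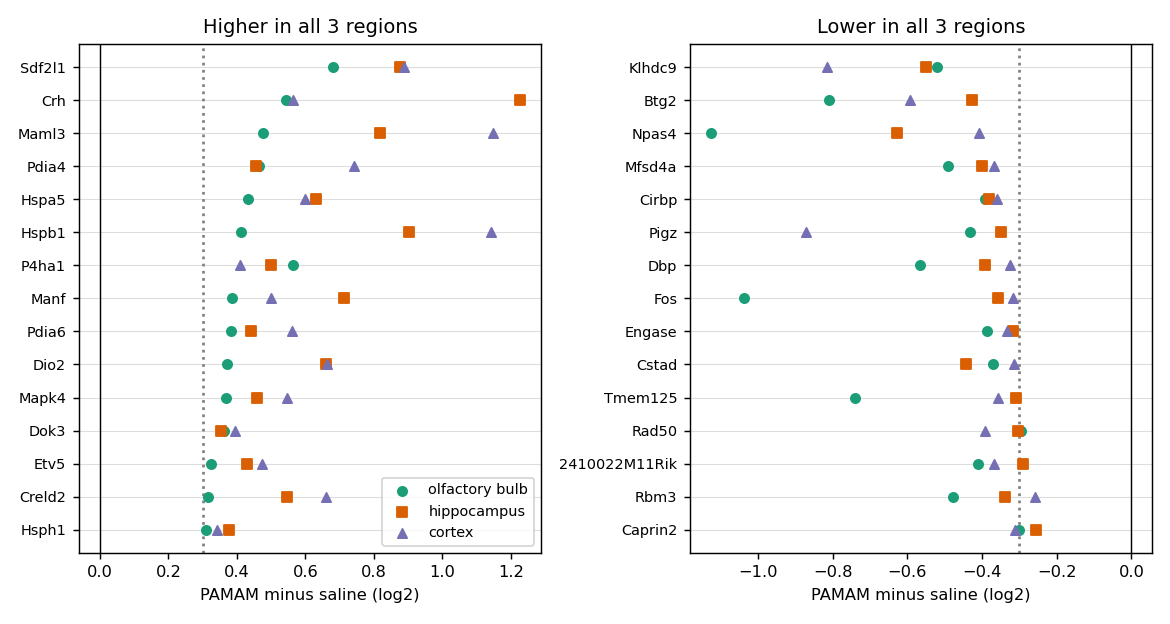
PAMAM minus saline (log2) of the 15 higher and 15 lower brighter genes with the same direction in all 3 regions, ordered by the region in which each differed least; each symbol is 1 pair of arrays and the dotted line marks 0.3. Sdf2l1 leads the higher genes with 0.68 to 0.89, and Klhdc9 the lower ones with -0.52 to -0.81.

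Because the ER chaperone genes stood together at the head of the higher genes, promoters were searched for the ER stress response element, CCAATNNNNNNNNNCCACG on either strand, the site through which Atf6 and Xbp1 act on such genes. RefSeq promoters (GRCm38.p6, 250 bases before to 50 after the start) matched 32 of the 36 tested members of the list, and 9 of these 32 hold the element, against 39 of all 32851 promoters (0.119%). The list was made of genes of the unfolded protein response and ER folding, so this share describes the list and is not a result of the arrays. Among members with the element, Canx differed by -0.01, -0.02 and 0.16 and Derl3 by 0.43, 0.58 and -0.42. The others with it were higher in all 3 regions. The element stands in 3 of the 12 promoters matched among the 15 named higher genes, and these are shown with the element in capitals, for Creld2 as its reverse complement. They lie at chr2:34771990-34772078 (Hspa5), chr12:17266456-17266544 (Pdia6) and chr15:88819485-88819573 (Creld2), all on the plus strand, upstream of the start.
Hspa5: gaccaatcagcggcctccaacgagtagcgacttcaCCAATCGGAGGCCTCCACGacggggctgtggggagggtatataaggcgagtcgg
Pdia6: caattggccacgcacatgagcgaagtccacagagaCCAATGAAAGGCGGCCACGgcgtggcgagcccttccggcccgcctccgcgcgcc
Creld2: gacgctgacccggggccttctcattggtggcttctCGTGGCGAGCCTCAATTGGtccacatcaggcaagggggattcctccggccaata
A match is a description of the letters and does not show binding.

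Hspa5 encodes BiP, the main Hsp70 of the endoplasmic reticulum and the protein that holds the stress sensors inactive. Its level was 4.88, 4.96 and 4.97 on the saline arrays and 5.31, 5.59 and 5.57 on the PAMAM arrays. Every PAMAM array was above every saline array, and the mean difference was 0.55 with a standard error of 0.073 (n = 3 regions, adjusted p = 0.680 in the limma fit). Sdf2l1, a cofactor of BiP, had levels of -0.57, -0.19 and -0.09 with saline and 0.11, 0.69 and 0.80 with PAMAM. The groups did not overlap here either, and the mean difference was 0.81 with a standard error of 0.075 (adjusted p = 0.680, limma). Hspa5 and Sdf2l1, like Hspb1 and Klhdc9 below, were picked for the size of their differences, which favours groups that do not overlap.

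The disulphide isomerases, which form and reshuffle disulphide bonds, included Pdia6, with differences of 0.38, 0.44 and 0.56. Its other tested probe gave 0.29, 0.36 and 0.46. Pdia4 differed by 0.47, 0.46 and 0.74. Both were thus higher in each region, whereas P4hb, the founding member of the family, differed by -0.00, 0.12 and -0.04. Manf, a secreted ER stress protein with neurotrophic activity, was higher by 0.39, 0.71 and 0.50, and Creld2, an ER protein that is induced by ER stress, by 0.32, 0.55 and 0.66. Dnajb11, an Hsp40 partner of BiP, differed by 0.31, 0.32 and 0.42. The lectin chaperone Calr differed by 0.39, 0.29 and 0.37, and Hsp90b1, the Hsp90 of the ER, by 0.34, 0.38 and 0.25.

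Of the 36 tested members of the unfolded protein response list, 20 (55.6%) were higher and 2 lower in all 3 regions, and 7 (19.4%) met the size rule as higher. None passed the test, and the median of the mean differences was 0.15, beside 0.01 over all genes tested and 0.02 over the brighter ones. By role, the counts were as follows. Among 11 chaperones and cofactors 8 were higher in all 3 regions and the median was 0.35, and among 4 disulphide isomerases 3 were, with a median of 0.35. Among 7 degradation genes such as Herpud1 and Sel1l, 4 were higher in all 3 regions, with a median of 0.13. Among 5 sensors and transcription factors 3 were higher in all 3 regions, with a median of 0.11. Among 7 genes of the ATF4 and CHOP branch, which serves the integrated stress response, 0 were higher in all 3 regions, 2 were lower and the median was -0.02. In that branch Ddit3, which encodes CHOP, differed by 0.13, 0.35 and -0.00, and Trib3 by -0.45, -0.02 and -0.16. Xbp1, the transcription factor whose mRNA is spliced by Ern1, was higher by 0.23, 0.34 and 0.31, and Ern1 itself differed by 0.01, -0.04 and -0.95. Hyou1, a chaperone of the ER, differed by 0.53, 0.19 and -0.19. In the cortex 26 of the 36 members were higher, beside 11362 of all 21110 genes and 7587 of the 12041 brighter genes. This grouping by role was made after the values were seen and was not tested. It counts Atf4 itself (-0.046, 0.047 and 0.375) and Eif2ak3 (0.095, 0.071 and 0.079) among the sensors and transcription factors, not in the ATF4 branch. Sec61b and Cdk2ap2, both higher in all 3 regions, were given no role.

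**Figure D2:**
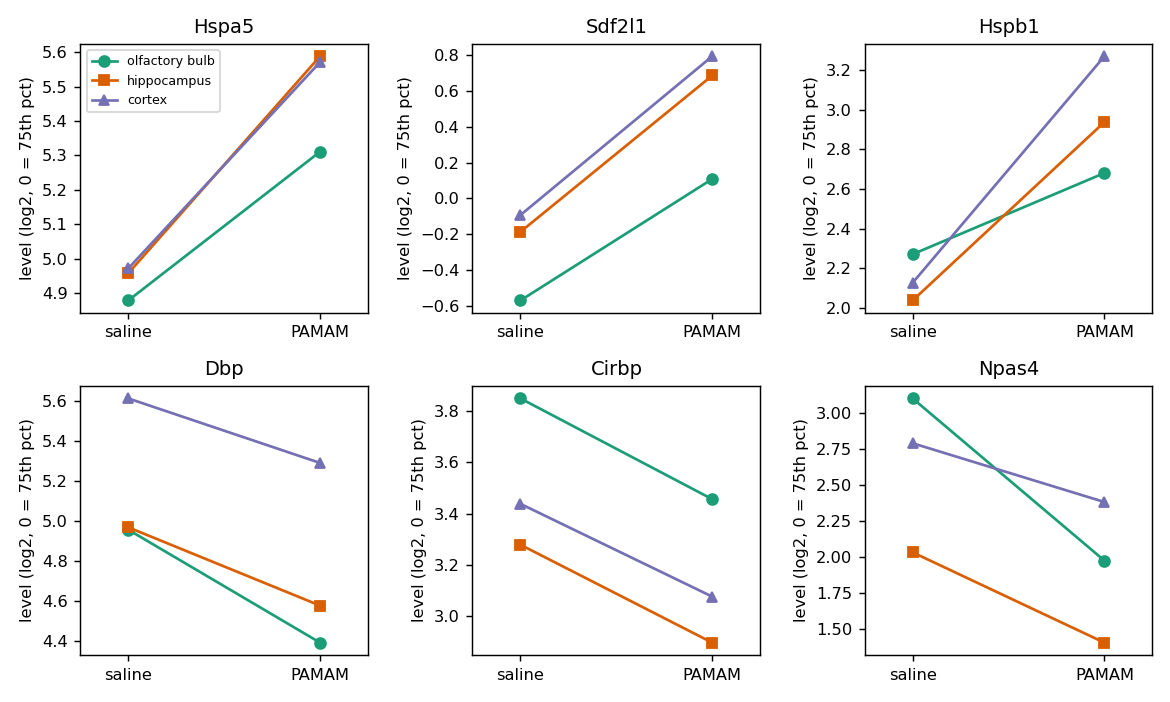
Level (log2 relative to the 75th percentile of the array) of 6 genes on the saline and the PAMAM array of each region; a line joins the 2 arrays of a region, and each panel has its own scale. All lines of Hspa5, Sdf2l1 and Hspb1 go up and all lines of Dbp, Cirbp and Npas4 go down.

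Hspb1 encodes a small heat shock protein that keeps unfolding proteins soluble. Its level was 2.27, 2.04 and 2.13 with saline and 2.68, 2.94 and 3.27 with PAMAM. The groups did not overlap, and the mean difference of 0.82 had a standard error of 0.15 (adjusted p = 0.680, limma). Hsph1, the Hsp110 that acts as a nucleotide exchange factor for Hsp70, differed by 0.31, 0.38 and 0.34, and its other probe by 0.41, 0.40 and 0.29. Hspa1a, the inducible Hsp70, is dimmer and differed by 0.32, 0.35 and 0.41. It has a near-identical neighbour, Hspa1b, whose RNA the probe may also bind.

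Of the 29 tested members of the heat shock list 21 (72.4%) were higher and 0 lower in all 3 regions, 3 (10.3%) met the size rule as higher, and the median of the mean differences was 0.17. The cochaperone Stip1, which links Hsp70 to Hsp90, differed by 0.26, 0.21 and 0.37. The small heat shock protein Cryab differed by 0.26, 0.47 and 0.17, with 0.11, 0.40 and -0.10 by its other probe, and Hspb8 by 0.02, 0.39 and 0.48. Hsf1 itself differed by 0.03, 0.16 and 0.20. Brightness moved with these counts: among the brightest 20% of genes 20.4% were higher and 6.49% lower in all 3 regions, among the dimmest 20% 11.5% and 15.3%, and the part of this in the list counts was not tested. Of the 38 cytosolic ribosomal protein genes, which are also bright, 14 (36.8%) were higher and 0 lower in all 3 regions, with a median of 0.04. Of 31 proteasome subunit genes 4 (12.9%) were higher and 2 lower in all 3 regions, with a median of 0.01.

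**Figure D3:**
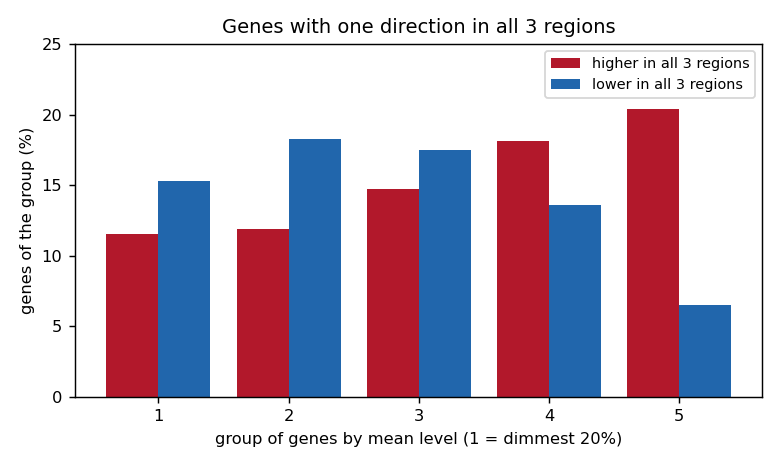
Share of genes (%) that were higher (red) or lower (blue) with PAMAM in all 3 regions, in 5 equal groups of the 21110 genes by mean level. The share of higher genes goes from 11.5% in the dimmest group to 20.4% in the brightest, and that of lower genes is 6.49% in the brightest.

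The heat shock element was searched as GAANNTTCNNGAA on both strands. It stands in 4 of the 23 matched promoters of the heat shock list (Hsph1, Hspd1, Hspe1 and Chordc1), against 198 of 32851 promoters (0.603%). Hspd1 and Hspe1 are neighbours that share a promoter, so their matches are not separate. The list was made of heat shock genes and chaperones, so this share describes the list and is not a result of the arrays.

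Other brighter genes higher in all 3 regions have roles outside protein folding. Crh, the hormone that starts the stress axis and a peptide of cortical interneurons, had levels of 1.28, -1.58 and 0.32 with saline and 1.82, -0.35 and 0.88 with PAMAM. Regions differed more than treatments for this gene, and the difference was largest in the hippocampus (1.23, against 0.54 and 0.56 elsewhere). Dio2, the astrocyte enzyme that activates thyroid hormone, was higher by 0.37, 0.66 and 0.66. P4ha1, a collagen prolyl hydroxylase of the ER, was higher by 0.56, 0.50 and 0.41, and its other probe had a mean difference of 0.35. Etv5, a transcription factor downstream of growth factor signalling, was higher by 0.33, 0.43 and 0.47. Maml3, a Notch coactivator, differed by 0.48, 0.82 and 1.15, but its other probe had a mean difference of -0.06. Of the 17 brighter genes that met the size rule as higher, 6 had another tested probe, and in 4 of these 6 all such probes had the same direction in all 3 regions. Among the 11 lower ones this was so for 3 of 4.

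Among the lower brighter genes, Klhdc9, a kelch-domain gene, had levels of 0.18, 0.36 and 0.60 with saline and -0.34, -0.20 and -0.22 with PAMAM. The groups did not overlap, and the mean difference was -0.63 with a standard error of 0.086 (adjusted p = 0.680, limma). Engase, a cytosolic enzyme that trims sugars from glycoproteins, differed by -0.39, -0.32 and -0.33, and its other probe had a mean of -0.27. Rad50, a DNA repair gene, differed by -0.30, -0.30 and -0.39, and its other probe had a mean of -0.12. Pigz, a mannosyltransferase of lipid anchors, differed by -0.43, -0.35 and -0.87.

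The cold-inducible RNA-binding genes Cirbp and Rbm3, whose mRNAs are known to be higher at lower temperature, were both lower with PAMAM in each region by their brightest probes. Cirbp had levels of 3.85, 3.28 and 3.44 with saline and 3.46, 2.90 and 3.08 with PAMAM. Its differences of -0.39, -0.38 and -0.36 were close to equal across regions, with a mean of -0.38 and a standard error of 0.062 (adjusted p = 0.680, limma), whereas its other probe was less even, with -0.33, -0.15 and -0.68. The levels of the groups overlapped, since the PAMAM olfactory bulb array was above the saline cortex array. Rbm3 differed by -0.48, -0.34 and -0.26, and 1 other probe gave -0.52, -0.20 and -0.29, while the other was higher in the olfactory bulb, with 0.17, -0.27 and -0.27. Caprin2, another RNA-binding protein gene, differed by -0.30, -0.26 and -0.31.

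Some clock genes were lower and others higher with PAMAM in every region. Dbp, a transcription factor of the clock's output, had levels of 4.96, 4.97 and 5.62 with saline and 4.39, 4.58 and 5.29 with PAMAM. It differed by -0.57, -0.39 and -0.32, and its other probe gave -0.55, -0.46 and -0.45. Nr1d1, which encodes the repressor Rev-erb alpha, differed by -0.52, -0.42 and -0.44, with a mean of -0.46 and a standard error of 0.064. Ciart, a repressor of Clock and Arntl, differed by -0.41, -0.80 and -1.01, and Bhlhe41, another such repressor, by -0.34, -0.33 and -0.99, but a second Bhlhe41 probe gave smaller differences of -0.06, -0.05 and -0.20. Per3 differed by -0.18, -0.21 and -0.31. Arntl, the partner of Clock, was instead higher by 0.26, 0.21 and 0.42, and so were Cry1 by 0.49, 0.29 and 0.15, Per2 by 0.34, 0.24 and 0.25 and Nfil3, a repressor that opposes Dbp, by 0.17, 0.47 and 0.39.

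Of the 19 clock genes 7 (36.8%) were lower and 5 (26.3%) higher in all 3 regions, and 4 (21.1%) met the size rule as lower. None passed the test, and the median over the list was -0.02 since members opposed each other. The 7 were Ciart, Bhlhe41, Nr1d1, Dbp, Per3, Nr1d2 and Tef, and the 5 were Arntl, Cry1, Per2, Nfil3 and Clock. Rora and Rorb differed in opposite directions in the hippocampus (0.54 and 0.46) and the cortex (-0.50 and -0.43).

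**Figure D4:**
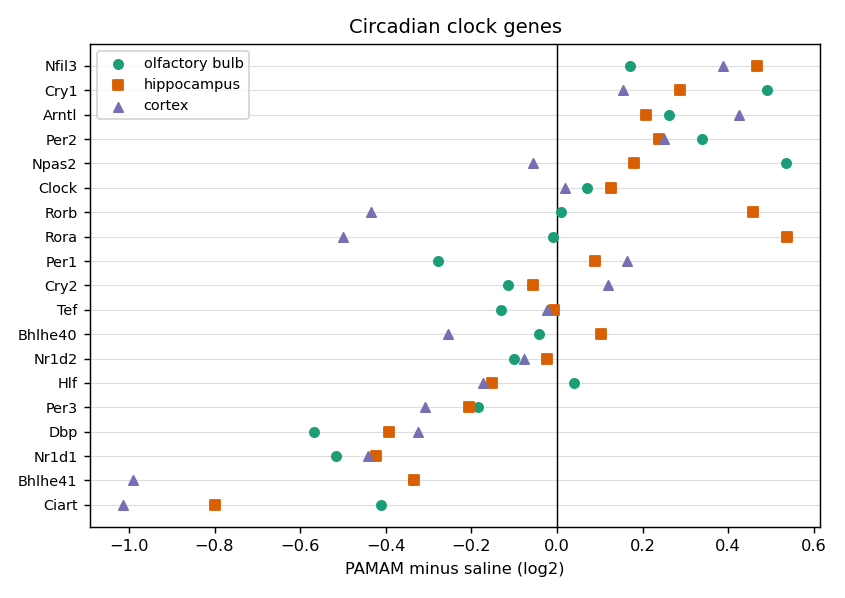
PAMAM minus saline (log2) of the 19 tested clock genes, ordered by mean difference; each symbol is 1 pair of arrays. Nfil3, Cry1, Arntl and Per2 lie above 0 in all 3 regions, and Ciart, Bhlhe41, Nr1d1, Dbp and Per3 below 0.

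The canonical E-box, CACGTG, reads the same on both strands. It stands in 5 of the 17 matched promoters of the clock list, against 2349 of 32851 (7.15%), a share that describes the list and not the arrays. These 5 genes did not share a direction. Ciart, Bhlhe41 and Tef (-0.13, -0.01 and -0.02) were lower in all 3 regions, Cry1 was higher, and Per1 differed by -0.28, 0.09 and 0.16. Ciart, shown because it had the largest mean difference of the list, has 3 E-boxes within the stretch, on the minus strand at chr3:95882232-95882379 (GRCm38.p6), with the E-boxes in capitals.
Ciart: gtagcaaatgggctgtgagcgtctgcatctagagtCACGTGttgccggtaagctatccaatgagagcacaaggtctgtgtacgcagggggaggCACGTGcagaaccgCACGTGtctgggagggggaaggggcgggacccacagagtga
The windows of Dbp and Nr1d1 hold none of the motifs searched, which says only that these letters are not in them.

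Immediate-early genes did not share a direction. Npas4, a transcription factor induced by neuronal activity, had levels of 3.10, 2.03 and 2.79 with saline and 1.97, 1.40 and 2.38 with PAMAM. Fos, a subunit of AP-1, had levels of 1.93, 0.80 and 1.65 with saline and 0.90, 0.44 and 1.33 with PAMAM. Both were lower in every region, most in the olfactory bulb, where the differences were -1.13 and -1.04, and the groups overlapped. Btg2, an antiproliferative gene that p53 also induces, differed by -0.81, -0.43 and -0.59, and Junb by -1.36, -0.22 and -0.58. Other members were lower in the olfactory bulb and higher in the other regions: Arc differed by -1.11, 0.43 and 0.07, and Fosb by -0.82, 0.56 and 0.68. Fosl2, an AP-1 subunit with slower kinetics, was higher by 0.21, 0.27 and 0.75. Of 23 tested members 6 (26.1%) were higher and 5 (21.7%) lower in all 3 regions, and the region medians were -0.23, 0.22 and 0.09. The median of the mean differences was 0.04. It was 0.20 without the olfactory bulb pair, -0.04 without the hippocampus pair and -0.06 without the cortex pair. Whether the olfactory bulb differed from the other regions was not tested, since each has 1 pair of arrays.

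Of the late activity-regulated genes most were higher, 21 of 23 by mean difference. By the same measure 11151 of all 21110 genes and 7090 of the 12041 brighter genes were higher. Of 23 tested members 11 (47.8%) were higher and 1 lower in all 3 regions, and 3 met the size rule as higher. The median of the mean differences was 0.19. It was 0.23 without the olfactory bulb pair, 0.33 without the hippocampus pair and 0.17 without the cortex pair. Bdnf, a neurotrophin released with activity, had levels of -0.82, 0.71 and 0.30 with saline and -0.67, 1.26 and 1.28 with PAMAM. Its differences were 0.15, 0.56 and 0.97, with a mean of 0.56 and a standard error of 0.17 (adjusted p = 0.686, limma). Its receptor gene Ntrk2 differed by 0.11, 0.02 and 0.07, and the mean differences of its other probes were 0.09 to 0.22. Inhba, which encodes activin A, differed by 0.08, 1.18 and 1.30, Ptgs2, the inducible cyclooxygenase, by 0.09, 0.58 and 1.06, and Nptx2, a synaptic pentraxin, by 0.22, 0.79 and 1.05. All 3 had smaller differences in the olfactory bulb than in the other regions. Pcsk1, a convertase of prohormones, differed by 0.38, 1.02 and 0.48. Baz1a, a chromatin remodeller on the list, was even across regions with 0.45, 0.52 and 0.65, and its other probe gave 0.40, 0.35 and 1.13.

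Cdkn1a, the p21 inhibitor of cell division, which p53 and glucocorticoids both induce, had levels of 1.58, -1.26 and -0.48 with saline and 1.78, 0.05 and 1.11 with PAMAM. It was higher by 0.20, 1.31 and 1.58, with a mean of 1.03 and a standard error of 0.28 (adjusted p = 0.683, limma). The groups overlapped, since the saline olfactory bulb array was above the PAMAM arrays of the other regions. The p53 list held both directions: of 22 tested members 8 (36.4%) were higher and 5 (22.7%) lower in all 3 regions, with a median of 0.07. Mdm2, the feedback inhibitor of p53, differed by 0.04, 0.15 and 0.09. Of 24 glucocorticoid-responsive genes 13 (54.2%) were higher and 4 (16.7%) lower in all 3 regions, with a median of 0.11. Fkbp5, a cochaperone of the glucocorticoid receptor, differed by 0.34, 0.14 and 0.67, Zbtb16 by 0.44, 0.15 and 0.37 and Map3k6 by 0.43, 0.18 and 0.39. Sgk1, a kinase induced by the same receptor, differed by -0.12, -0.03 and -0.14, so known targets lay on both sides. Gfap, the filament protein of astrocytes, differed by 0.10, 0.06 and 0.47, and its other probes were lower in the hippocampus, with -0.16 and -0.12.

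Other stress lists were near 0. Of 25 oxidative stress and NRF2 genes 8 (32.0%) were higher and 3 lower in all 3 regions with a median of 0.03. Of 17 cytokine and NF-kB genes 4 (23.5%) were higher and 3 (17.6%) lower, with a median of 0.03, and 0 members of either list met the size rule.

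**Figure D5:**
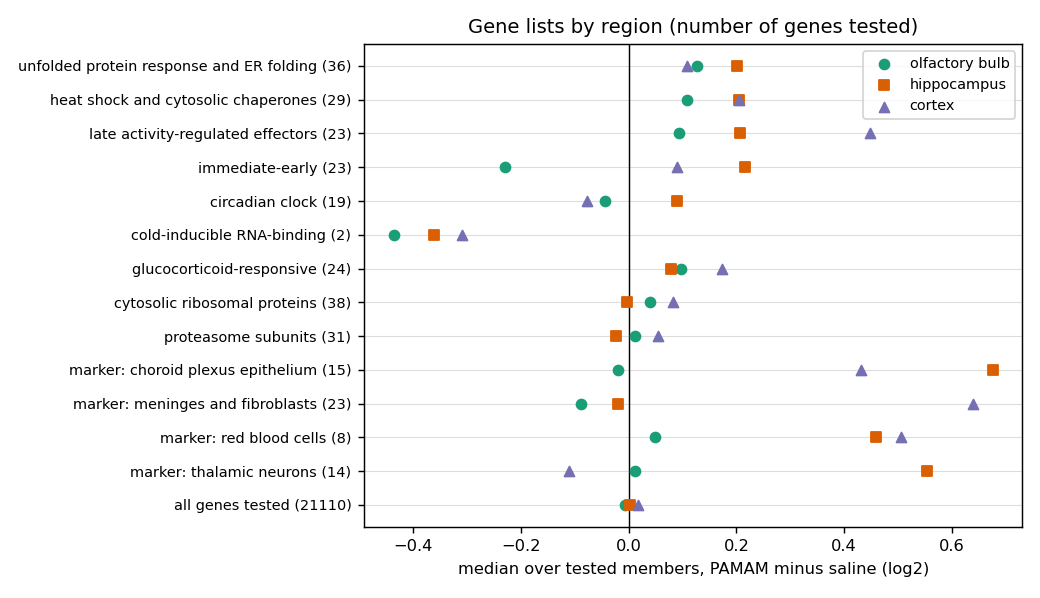
Median PAMAM minus saline difference (log2) of the tested members of 13 gene lists and of all genes, by region, with the number of genes tested in brackets. The chaperone lists are above 0 in all 3 regions and the cold-inducible genes below, while the choroid plexus, red blood cell and meningeal markers are far from 0 in 1 or 2 regions only.

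Markers of neighbouring tissue moved with some of these results, mainly in the hippocampus and the cortex. The summed signal of 15 tested choroid plexus markers, in multiples of the array's 75th percentile, was 31.0 with saline and 29.7 with PAMAM for the olfactory bulb, 236 and 375 for the hippocampus and 35.7 and 61.5 for the cortex, and 6 of 15 were higher in all 3 regions. Ttr alone gave 154 and 248 of the hippocampus sums and 3.17 and 20.8 of the cortex sums, and the other 14 genes gave 81.5 and 127, and 32.5 and 40.7. Of their defining genes Ttr and Folr1 were tested, and Kl and Kcne2 were not well above background on all 6 arrays. For 8 red blood cell genes the sums were 228 and 238, 208 and 257, and 185 and 269, and 5 of 8 were higher in all 3 regions. For 23 meningeal and fibroblast genes they were 93.6 and 86.6, 46.2 and 46.9, and 32.9 and 50.8, and 2 of 23 were higher in all 3 regions. Genes such as Cdkn1a, Inhba, Ptgs2 and Bdnf had larger differences in the hippocampus and cortex than in the olfactory bulb. The choroid plexus and red blood cell sums had this pattern too, whereas the meningeal sums hardly differed in the hippocampus. The part of the markers in these genes was not tested. Region markers bore out the labels: the summed olfactory bulb markers were 543 and 517 in that region against 102 to 168 elsewhere, and the hippocampal ones 150 and 137 in the hippocampus against 50.9 to 65.2. The cortical ones were 101 and 98.4 in the cortex against 70.7 to 78.6, and the cortex arrays also held the most striatal signal, 222 and 230 against 38.7 to 52.0. In whole tissue, fewer cells of a type and less RNA per cell cannot be told apart.

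Larger shared differences stood among dimmer genes, and these were singled out after their values were seen. An interval transcript on the reverse strand of chromosome 19, at chr19:5834117-5835940 of build mm9, is covered by 3 tested probes. Its brightest had levels of -2.24, -1.30 and -1.65 with saline and -1.18, -0.24 and -0.61 with PAMAM. The differences were 1.06, 1.06 and 1.03, with a standard error of 0.062 and an adjusted p of 0.622, the lowest of the limma fit, and over the 3 probes they were 0.69 to 1.30. The interval lies between the probes for Malat1 and Neat1, nuclear noncoding RNAs. The 6 probes that the files name Neat1 differed by -0.38 to -0.28, -0.24 to -0.02 and -0.21 to -0.09, opposite in direction to the interval. The probe named Malat1 differed by -0.21, -0.10 and -0.02, and a probe at the same position that the files name NEAT2, another name of Malat1, by -0.10, 0.04 and 0.01. Isoc2b, an isochorismatase-domain gene, was higher by 1.35, 0.91 and 0.79.

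Major urinary protein genes, which encode pheromone carriers made mostly by the liver, were lower with PAMAM. All 7 tested Mup genes were lower in all 3 regions, with differences of -2.89 to -1.44, -1.65 to -0.92 and -0.98 to -0.14. Mup18 had levels of 0.62, -0.42 and -1.03 with saline and -2.28, -1.98 and -1.68 with PAMAM. The PAMAM arrays were thus close to each other while the saline arrays were graded. The Mup genes are near-identical copies, so their probes are not separate measurements. Genes of the alpha-1 antitrypsin family, a protein also made by the liver, did not share a direction. Serpina1a differed by -1.34, -0.64 and 0.57, and its other probe by -1.38, -0.095 and 0.36. A probe of Serpina1e gave -0.51, -0.34 and -0.02, while Serpina1f, a dimmer gene, was higher by 0.35, 0.34 and 0.38. The list of major urinary and liver plasma proteins, which does not hold Serpina1f, has 12 tested genes. Of these, 7 (58.3%) were lower in all 3 regions and 6 met the size rule as lower, beside 14.2% and 0.308% of all genes. The 7 are the Mup genes, so the share counts near-identical copies.

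Detection by treatment was rare. Of all probes, 10 were well above background on the 3 PAMAM arrays and on no saline array, and 9 the other way. The dim group was bounded by the higher of its own signal and the lowest signal well above background on its array. Only 1 probe passed a 2-fold bound, which was taken between means over the 3 regions. This probe of Apoa2, an apolipoprotein of the liver, was at least 2.73-fold higher with saline in that mean. Its saline levels were -2.41, -3.90 and -4.00, highest in the olfactory bulb, and the bound was not taken within regions. The brighter probe of the same gene differed by -0.15, 0.10 and -0.04.

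Across genes, the differences of the regions correlated weakly. The differences of 2 regions correlated with r = 0.10 over the probes for olfactory bulb and hippocampus, 0.02 for olfactory bulb and cortex and 0.08 for hippocampus and cortex, and with 0.17, 0.02 and 0.11 over the brighter genes. These describe genes of the same 6 arrays, which share a slide and are not independent. In each pair of regions the genes at least 0.3 higher in both, or lower in both, were 167 and 172, 166 and 254, and 303 and 262, in that order, beside 202, 312 and 420 that were at least 0.3 in opposite directions. The cortex pair was the most scattered, with a robust SD of 0.22 of the differences, against 0.14 (olfactory bulb) and 0.15 (hippocampus).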

How the data were processed

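Expression was measured on 6 Agilent 1-colour arrays. The deposited scanner files hold spot intensity from Feature Extraction 10.7.3.1 with mm9 probe coordinates, per the file headers. A table of log2 values by the authors has no stated scaling or centring. Its column medians were -0.0914, -0.0462 and 0.0436 for saline and -0.0626, 0.0254 and 0.0349 for PAMAM, in the order bulb, hippocampus and cortex, and its differences correlated with those used here with r = 1 over 29553 probes in each region. The other columns of the files, flags and names, were deposited by the authors and used as filters.

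The processed signal was put on the log2 scale relative to the 75th percentile of its array (452.0 to 709.6). Control spots and 84 to 132 outlier spots per array were left out, spots of a probe were averaged and probes well above background on all 6 arrays were kept. Of 59305 spots, 34134 to 39057 were well above background and 0 saturated. Repeated spots had a median SD of 0.0859 on the log2 scale, and the number of arrays limits the precision.

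limma 3.58.1 (R 4.3.3) fitted treatment with region as a block, and p-values were adjusted over 29553 probes (Benjamini-Hochberg). The pairing comes from the region in the labels. The fit was tested on simulated data. Symbols were updated through RefSeq accessions (GRCm38.p6, names and promoters only): 27235 probes matched and 2838 symbols were replaced.

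The named genes are the 15 brighter genes in each direction, by the region in which each differed least, up to 6 members of a described list with the largest mean difference, and Bdnf, Ntrk2, Gfap and Cdkn1a. Further list members were named after their values were seen. The members and all 34 lists (810 entries, 805 on the array) were chosen with earlier results of these data known. All arrays lie on 1 slide. The hippocampus pair lies in different slide rows, so a slide row term equals leaving that region out.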

Additional observations from a re-analysis of the deposited data

Results flagged for a closer look

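Some genes differed by at least 1 (log2) in 1 region and had the opposite sign in another, 165 in all. With 1 pair of arrays per region, the differences between regions were not tested. The 10 with the widest gap between the highest and the lowest region are given here. All but Ttr are dimmer genes, and some gaps rest on 1 array. Tmem156, for example, had a level of -0.48 on the PAMAM cortex array and -3.64 to -3.10 on the others. Oxt, the oxytocin gene, had a gap of 3.91: it differed by 0.44 and 0.09 in the olfactory bulb and hippocampus and by -3.47 in the cortex, where the saline array had a level of 1.11. Scd4, a stearoyl-CoA desaturase gene, had a gap of 3.31 and differed by -3.03 in the cortex. Interval transcripts on chromosomes 4 and X, had gaps of 3.89 and 3.34 and were also lowest in the cortex. The other 3 tested probes of the chromosome 4 interval did not show this, with cortex differences of 0.49, 0.22 and -0.01. Rhox3a, a homeobox gene, had a gap of 3.69 with 1.90 in the hippocampus and -1.78 in the cortex.

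Ttr, the thyroxine carrier of the choroid plexus, had a gap of 3.25, with -0.54, 0.68 and 2.71. Tmem156 had a gap of 3.19 with 3.16 in the cortex. An interval transcript on chromosome 13 had a gap of 3.52 with -2.52 in the olfactory bulb, and the probes named NAP115184-1 and ENSMUST00000103593 had gaps of 3.37 and 3.29 with 3.05 and 2.77 in the hippocampus.

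For gene lists, the region medians of the immediate-early genes had a gap of 0.445 and those of the thalamic neuron markers one of 0.665 (0.01, 0.55 and -0.11), and neither gap was tested.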

How the results depend on the processing

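The limma fit called 0 probes under every setting run. Unadjusted p-values under 0.05 numbered 2023 in the fit reported and 1858 to 2124 with normexp background, quantile normalisation, the percentile over detected probes, a variance trend, the authors' log2 table or the filter on at least 1 array, and 1121 of 14776 brighter probes and 1504 of 21110 genes by the median of probes. The lowest adjusted p over all these settings was 0.0985 (variance trend). Without the replicate block for region the fit called 0 probes, with 205 such p-values. Leaving out 1 region gave 0 calls and 1401 to 2034 such p-values.

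Counts by the size rule depended on settings. The 70 higher and 65 lower genes became 31 and 19 with normexp background, 209 and 208 with probes above background on at least 1 array, 17 and 11 over brighter probes, 161 and 197 at a size of 0.2 and 7 and 6 at 0.5. The share of higher genes among them, 51.9%, was 62.0% with normexp. Over any 2 regions they numbered 166 to 303 higher and 172 to 262 lower, and at any size 5521 to 6049 higher and 5104 to 5821 lower. Over brighter probes 1465 genes were lower in all 3 regions. The median of all genes moved by under 0.1 with every scaling. The list of major urinary and liver plasma proteins had a median of 0.46 over brighter probes, from 2 genes. Of 926 values of 79 named and marker genes under the alternatives, 924 kept their direction. The exceptions were the meningeal markers Dcn (-0.013) and Aldh1a2 (-0.26) without the cortex, whose values without 1 region reached 0.47 for both. The cause was not tested. Many of the kept directions were fixed beforehand. Genes picked for 1 direction in all 3 regions cannot reverse when a region is left out. A variance trend, or a fit without the block, leaves the mean difference of a probe unchanged. The count of 924 thus does not measure how robust the differences are.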
